A study of Mus musculus with 4 samples.

Results

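The aorta of Ath29 congenic mice on Western diet was compared with that of B6 control mice on the same diet. The comparison rests on 1 array a side: the arrays titled for the congenic strain and for B6 under Western diet are 2 of the 4 arrays of the series, and the other 2 are their counterparts on chow. B6 mice are C57BL/6 apoE-/- animals, labelled with atherosclerosis. Ath29 congenic mice are labelled as strain C57BL/6 and as resistant to atherosclerosis, and an apoE genotype is stated here for the controls only. All mice were weaned onto chow at 3 weeks of age, and those of the Western diet groups were moved to that diet at 4 weeks and kept on it for 2 weeks. The source label and the design text give aorta as the tissue, while the extract protocol names liver. Albumin (Alb), the hallmark transcript of hepatocytes, read 54.9 on the B6 Western array and 56.2 on the Ath29 Western array, where the smooth muscle actin Acta2 read 10722 and 10702. Whether an array holds 1 mouse or a pool is not stated. With 1 array per group, no difference has a replicate check, and no test of the strain difference could be made.

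Mice without apolipoprotein E clear remnant lipoproteins poorly and form arterial lesions that a diet with much fat and cholesterol, such as the Western diet, speeds up. A congenic strain carries a chromosome segment of a donor strain on the background of another, and the locus Ath29, mapped for lesion size, lies on mouse chromosome 9. The aortic wall consists of endothelium, layers of smooth muscle cells between elastic sheets, and an adventitia of fibroblasts and resident macrophages. Around the wall lies fat of brown and white type, the root of the vessel adjoins the heart, and the chest aorta runs close to skeletal muscle. In such a bulk sample, fewer cells of a type and less RNA per cell cannot be told apart.

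Of 45101 probe sets on the array, 45037 are not controls, and 11718 genes could be compared after a filter on low intensity at 27.4 units. Differences are given as log2 of Ath29 Western minus log2 of B6 Western after a shift of all arrays to a common median, and intensities are printed as deposited. Where 4 intensities are given, the B6 pair comes first and the Ath29 pair second, each with chow before Western diet. Array medians lay between 27.9 and 28.8. The probe set of Apoe, the gene knocked out in the controls, read 7.03, 19.2, 8.51 and 25.2, below the filter on every array, and whether its probes fall in the deleted part is not known here. As a measure of RNA integrity, actin signal at the 3' end divided by that of the middle probe set was 5.63 on the B6 Western array and 7.62 on the Ath29 Western array, and the 3' to 5' ratio was 25.4 and 28.5. The same ratios for Gapdh were 9.54 and 10.6, and 29.0 and 28.0. The part of RNA integrity in the differences below was not tested.

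On Western diet, 99 genes, 0.845% of those measured, were at least 2-fold higher in Ath29 than in B6 aorta, and 238 genes, 2.03%, were at least 2-fold lower. The distribution was centred at 0.00, with an SD of 0.46, and the middle 50% of genes lay between -0.22 and 0.23. Lower genes included most of the heart muscle genes and many genes of fat and fatty acid oxidation, which read highest on the B6 Western array. Without 142 measured genes on 7 lists of heart, skeletal muscle, brown fat, white fat, fatty acid oxidation and oxidative phosphorylation, 99 genes were higher and 195 lower. At 1.5-fold, 657 genes (5.61%) were higher and 924 (7.89%) lower. Over all 45037 non-control probe sets, with no filter, 1001 (2.22%) were higher and 1277 (2.84%) lower by at least 2-fold.

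How far a single difference can be read depends on the intensity of the gene. Among the dimmest 2930 genes, with mean intensities from 27.4 to 69.2, 5.70% were past 2-fold, against 0.922% of the 2930 brightest, of which 1 was higher and 26 were lower. The 2 brightest probe sets of a gene, available for 4663 genes, differed from each other by a median of 0.25 on the log2 scale, and the 95th percentile of that gap was 0.94. Of the 99 higher genes, 16 had more than 1 probe set past the filter, and in 1 of them, Ocln, all were past 2-fold in the same direction. Of the 238 lower genes, 47 had more than 1 and in 14 all were past 2-fold. A Western value below the filter, which makes the difference inexact, was found in 45 of the higher and 63 of the lower genes. The filter acts on the mean over the arrays. A gene low on the other arrays could thus enter through 1 high Western value, and its call then followed from that entry. Probe sets without a single gene symbol, 3366 past the filter, gave 59 higher and 66 lower, or 3.71% past 2-fold.

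**Figure D1:**
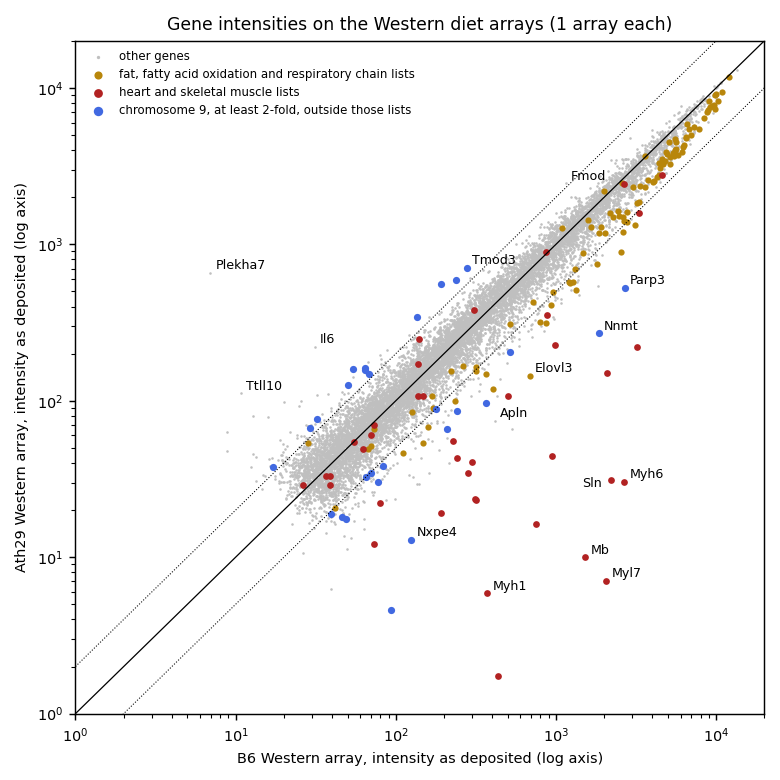
Intensity of each of 11718 genes on the B6 Western array (x axis) against the Ath29 Western array (y axis), both on log axes. The solid line marks equal values and the dotted lines 2-fold. Of the muscle genes in red, 23 lie past 2-fold on the B6 Western side, with Myl7 at 2055 against 7.03. The other muscle genes lie between the dotted lines.

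Heart muscle genes were the furthest from equal. Of the ventricular and shared heart genes, 16 of 25 measured members were at least 2-fold lower in Ath29 Western and 0 were higher, with a median difference of -2.11, beside 2.03% of all genes lower. Some members, such as Tnnc1 and Csrp3, read below the filter on every array but B6 Western and entered through it. Their lower value was fixed by that entry, and the count includes them. Of 4 measured atrial genes 3 were lower, and the list's median was -4.98. Their median log2 intensity was 8.29 on the B6 Western array for the ventricular and shared list, while the B6 chow, Ath29 chow and Ath29 Western arrays gave 5.89, 6.22 and 5.76, so the B6 Western array stood apart from all 3. On chow the same lists gave medians of -0.25 and -0.19 between the strains.

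Of the 3 lower atrial genes, Myl7, the atrial regulatory myosin light chain, read 51.3, 2055, 75.8 and 7.03, and its difference of -7.73 is a bound, since the Ath29 Western value lies below the intensity floor of 9.59. Sln, sarcolipin, which restrains the calcium pump of the atrial sarcoplasmic reticulum, read 81.35, 2209, 35.8 and 31.3, a difference of -6.13. Myl4, the atrial essential light chain, read 258, 3186, 248 and 222, a difference of -3.84. For all 3 genes the B6 Western array alone was high. Nppa, the atrial natriuretic peptide, stayed below the filter on the mean of the arrays but read 243 on the B6 Western array, against 6.20, 6.20 and 13.6 on the others. Stk38l, a kinase placed on the atrial list, differed by 0.32.

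Several genes found in both atrium and ventricle had differences of similar size, while others on the same list differed little. Myh6, the alpha myosin heavy chain, read 118, 2661, 106 and 30.2 (-6.45), and Mb, myoglobin, the oxygen carrier of muscle, read 55.1, 1515, 28.1 and 9.97 (-7.24). The cardiac troponins Tnnt2 (219, 2081, 163 and 149.7, a difference of -3.79) and Tnnc1 (24.6, 315, 22.75 and 23.3, a difference of -3.75) and the cardiac actin Actc1 (55.5, 939.6, 75.2 and 44.55, a difference of -4.39) were high on the same array. A second Tnnt2 probe set gave -4.37, and the 2 probe sets of Myom2, an M-band protein, gave -5.52 and -6.20. Tnni3, the cardiac troponin I, differed by -5.50 as a bound. Phospholamban (Pln), which smooth muscle shares with the heart, read 292, 988, 150.2 and 228 (-2.11).

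Markers of ventricular muscle were divided. Myl3, the ventricular essential light chain, read 74.0, 227, 64.2 and 55.2 (-2.03), high on the B6 Western array like the genes above. Myl2, the ventricular regulatory light chain, read 58.0, 69.8, 42.1 and 60.4, a difference of -0.20. Myh7, the beta myosin heavy chain, read 30.3, 26.2, 29.8 and 28.9, a difference of 0.15, with all values near the filter. Genes of the list that are not particular to the ventricle were divided as well. The giant sarcomere protein Ttn differed by -0.01 and Ryr2, the cardiac calcium release channel, by -0.35. Ldb3 (0.06), Hspb7 (-0.12), Tcap (-0.46) and Xirp1 (0.33) also differed little.

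Skeletal muscle genes gave a smaller difference, with 4 of 10 measured members at least 2-fold lower, 0 higher and a median of -0.38, beside 2.03% of all genes lower. Myh1, a fast myosin heavy chain, read 176, 373, 6.21 and 5.89: it was high in both B6 arrays and below the floor in both Ath29 arrays, so its difference of -5.27 is a bound. Eno3, the muscle enolase, read 108, 503, 92.0 and 108 (-2.21). Pvalb, a calcium buffer of fast fibres, differed by -2.58 and Tnni2, the fast troponin I, by -1.83, each with an Ath29 Western value below the filter. Tnni2, at 19.5, 79.5, 18.95 and 22.2, passed the filter through the B6 Western array alone, and Myh1 through the B6 arrays alone. Their lower values were fixed by that entry, and the count of 4 includes both. Of the defining genes, Acta1 read 18.6, 36.6, 19.2 and 10.6 and Myh4 6.15, 124, 1.71 and 1.22, again highest on the B6 Western array. Casq1, the fast-fibre calsequestrin, was the list member on the other side, at 0.84.

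Fat genes were lower in Ath29 Western as well, though by less. On the brown fat list 13 of 14 members lay below 0, 4 were at least 2-fold lower and the median was -0.76. On the white fat list 16 of 18 lay below 0, 6 were at least 2-fold lower and the median was -0.65. Of all genes 49.4% lay below 0 and 2.03% were at least 2-fold lower. Both fat lists had the opposite sign on chow, with strain differences of 0.59 and 0.72 on the other pair of arrays. Over the 4 arrays the white fat list had median log2 intensities of 8.31, 10.08, 9.64 and 8.95, so that B6 chow was the lowest and B6 Western the highest.

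Among brown fat genes, Elovl3, an elongase of very long fatty acids induced by cold, read 82.2, 684, 415 and 144 (-2.24). Cidea, a lipid droplet protein, read 499.5, 1805, 1072 and 749 (-1.26). Ppargc1a, the coactivator of mitochondrial biogenesis, gave differences between -0.88 and -1.59 over its 5 probe sets. The defining gene Ucp1, the uncoupling protein of brown fat, read 3454, 5497, 4508 and 3766, a difference of -0.54, and Prdm16, a brown fat regulator, differed by 0.13. In white fat, the adipocyte regulators Pparg (44.8, 147, 96.9 and 53.95) and Cebpa (290.5, 924, 479 and 409.65) differed by -1.44 and -1.17. Adig, adipogenin, read 332, 1283, 1070.1 and 569.7 (-1.16). The very abundant adipocyte genes differed little: Adipoq, adiponectin, by -0.48, Lpl, lipoprotein lipase, by -0.31, and Fabp4, a fatty acid carrier, by -0.10. The other defining white fat gene, Lep (leptin), lay below the filter, at 1.34 on the B6 Western array and 15.01 on the Ath29 Western array.

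Genes of fatty acid oxidation and of the respiratory chain moved as a block at different sizes. In the oxidation list 24 of 25 members lay below 0, 7 were at least 2-fold lower, beside 2.03% of all genes, and the median was -0.66. Ucp3, a mitochondrial carrier of muscle and brown fat, read 73.0, 406, 304 and 119 (-1.77, with 0.48 from a dimmer probe set). The peroxisomal enzymes Acaa1b (-1.51) and Ehhadh (-1.47) and the electron transfer gene Etfdh (-1.30) followed, while Hadh, an abundant mitochondrial dehydrogenase, differed by -0.05. All 48 measured genes of oxidative phosphorylation lay below 0, beside 49.4% of all genes, with a median of -0.47, and 3 were at least 2-fold lower: Atp5b (-1.38), Uqcrq (-1.21) and Cox8a (-1.10). On chow 43 of the 48 lay above 0, beside 41.0% of all genes, with a median of 0.32. The part of heart muscle and fat in the lower values of Ath29 Western was not tested.

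**Figure D2:**
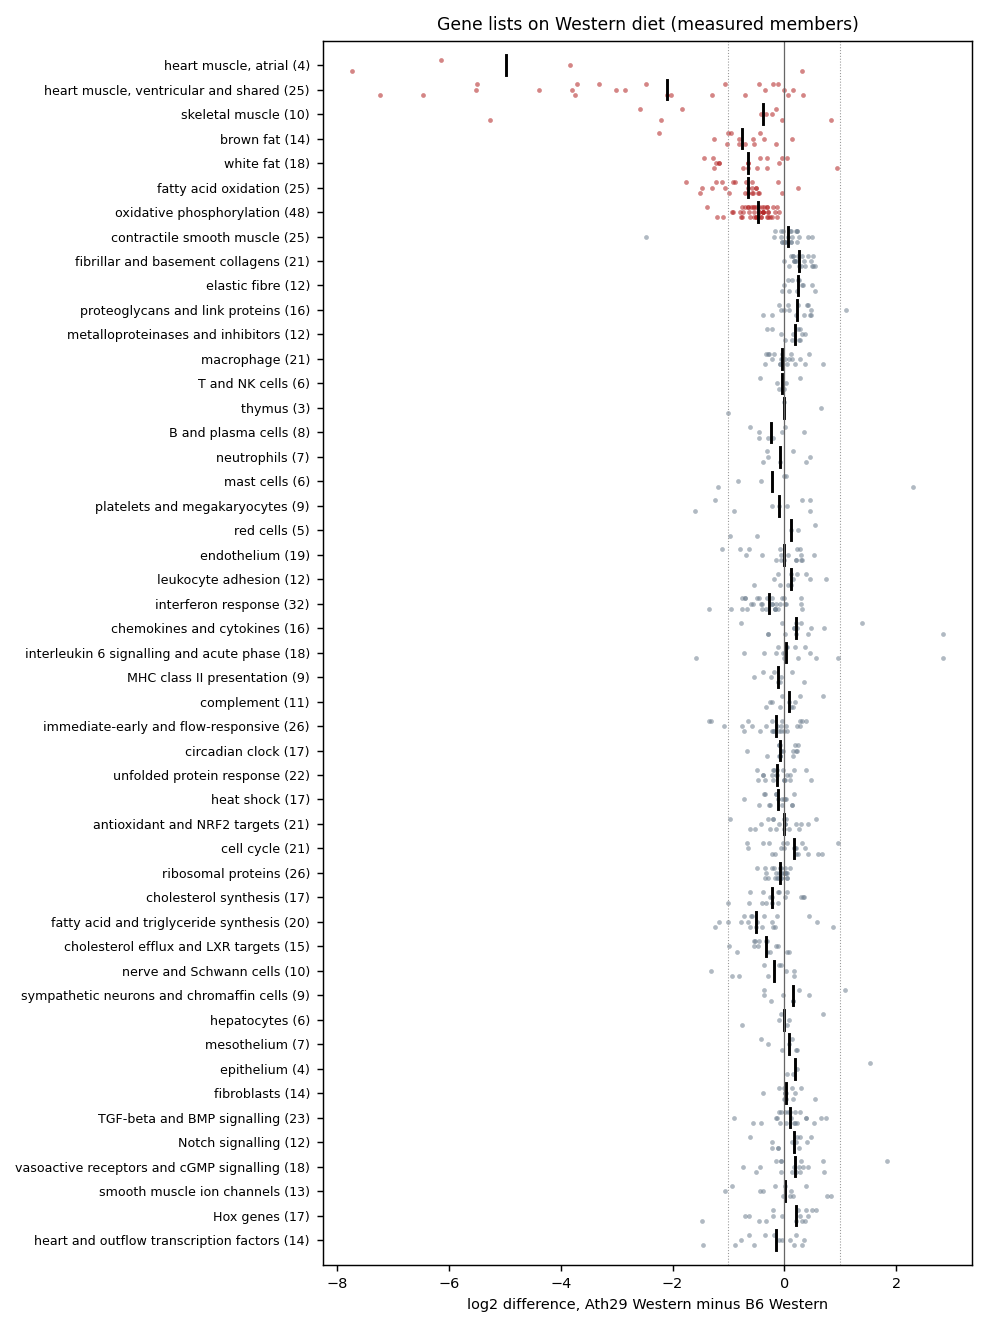
Differences between Ath29 Western and B6 Western (x axis, log2) of the measured members of 49 gene lists, 1 point a gene, with the number measured in brackets and the median as a black bar. Lists of muscle, fat and oxidation are in red, where the ventricular and shared heart list has a median of -2.11, and the dotted lines mark 2-fold.

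Outside these lists, 195 genes were at least 2-fold lower, and most of them also read highest on the B6 Western array. Their median intensities were 76.1, 157, 80.5 and 60.3, and on chow, measured on the other 2 arrays, 134 of the 195 were above 0, beside 41.0% of all genes, 54 of them by at least 2-fold, where 2.16% of all genes were. Several are known from muscle or fat though they are on neither list. Tmem182, a membrane protein of muscle, read 51.8, 529, 124 and 65.9 (-2.998), and Actn2, the actinin of the sarcomere, read 20.9, 216, 68.3 and 40.2 (-2.42). Ffar4, a receptor for long-chain fatty acids found on adipocytes, read 58.8, 186, 78.25 and 48.7 (-1.93).

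Of the lowest genes, 3 that encode secreted peptides are given here, chosen after their values were seen. Apln, which encodes apelin, a peptide of endothelium and fat that acts on vascular tone, read 75.7, 415, 92.35 and 74.35, a difference of -2.47. Edn3, endothelin 3, read 60.2, 159.95, 65.7 and 34.5 (-2.20). Nts, neurotensin, read 38.7, 121, 43.1 and 33.6 (-1.84). In each, the B6 Western array stood alone while the Ath29 Western array lay close to or below both chow arrays. Frmd5, a cytoskeletal adaptor (-2.20), and Med24, a Mediator subunit (-1.96), had the same shape.

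The lower genes with the firmest support from probes were 10 outside the lists in which every probe set was past 2-fold. Cyp2b10, a xenobiotic cytochrome, read 119, 978, 309 and 333, and its 3 probe sets gave -1.55, -1.65 and -1.48. Retreg1, a receptor for autophagy of the endoplasmic reticulum, read 452, 1389, 782 and 476 (-1.54 and -1.63). Car4, a membrane carbonic anhydrase of capillaries, read 50.8, 241, 151 and 83.85 (-1.51 and -1.83), and Rnf128, a ubiquitin ligase, read 20.3, 144, 20.2 and 43.1 (-1.73 and -1.58). Prkar2b, the regulatory subunit of protein kinase A found in fat, read 1228, 3342, 2671 and 1616 (-1.04, -1.49 and -1.99). Elovl6 (-1.18 and -1.26), a fatty acid elongase, Crls1 (-1.05 and -1.13), the cardiolipin synthase, and Cd1d1 (-1.01 and -1.12), which presents lipids to NKT cells, had the B6 Western array highest too. The solute carrier gene Mfsd4b1 (-1.83 and -1.97) and Rflnb (-1.004 and -1.61), a regulator of filamin, complete the 10.

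The higher genes were fewer and dimmer, with median intensities of 51.2, 29.7, 53.2 and 76.6. None of them is on a muscle, fat or oxidation list, and on chow 55 of the 99 lay above 0, beside 41.0% of all genes. The top value, for Plekha7, a protein of adherens junctions, rests on 1 reading: 18.7, 6.92, 6.53 and 655, which gives a bound of 6.09, while the gene's other probe set gave -0.45. Ttll10, a glycylase of tubulin and other proteins, read 43.1, 10.75, 89.5 and 111 (3.38), where the B6 Western value is below the filter. Camk4, a calcium-dependent kinase, read 138, 32.1, 41.6 and 109, which is 1.77 on Western diet and -1.77 on chow. Zfp40, a zinc finger gene, was low on the B6 Western array alone, at 110, 37.5, 126 and 111 (1.57, other probe set 0.44). Ocln, occludin of tight junctions, read 73.0, 21.7, 30.65 and 62.7, with 1.54 and 1.42 from its probe sets and a B6 Western value below the filter.

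**Figure D3:**
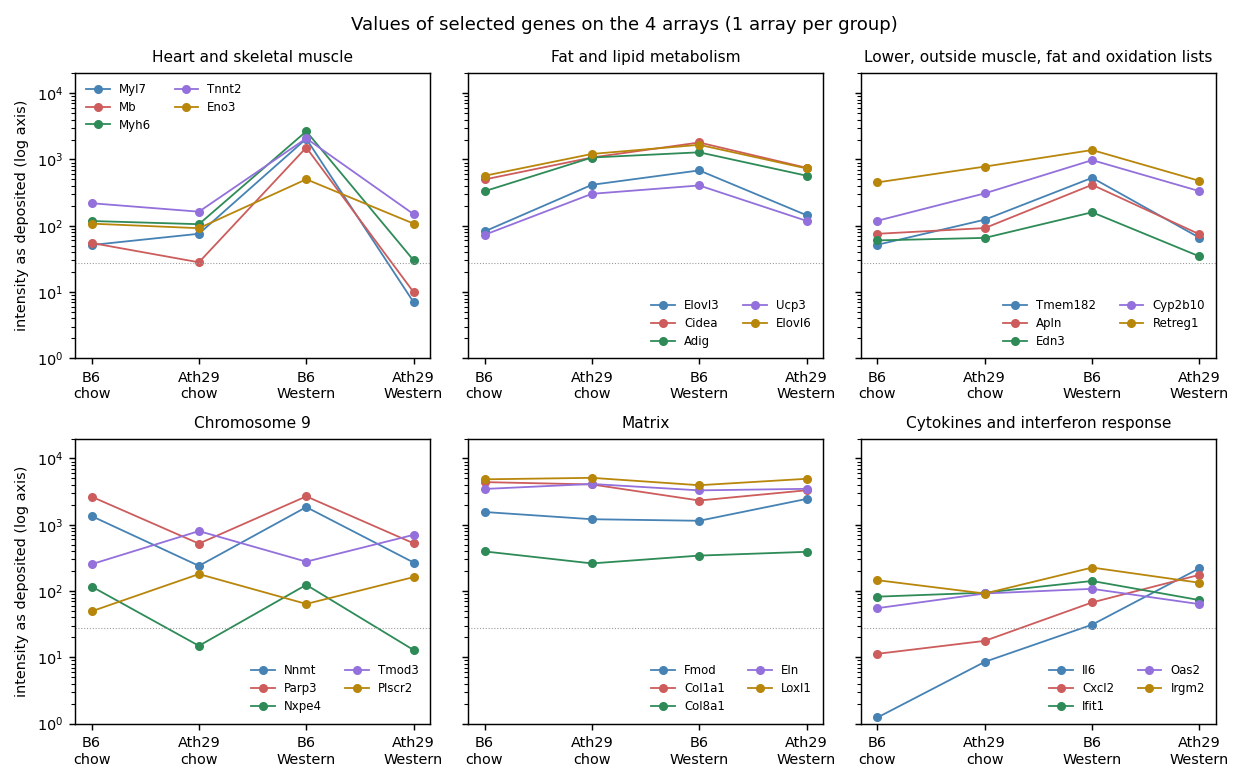
Intensities of 30 genes on the 4 arrays (log axis, 1 point an array, with lines joining the values of a gene and a dotted line at the filter of 27.4). Muscle genes peak on the B6 Western array, and Il6 is highest on the Ath29 Western array at 221. Chromosome 9 genes such as Nnmt (1353, 1849, 240.1 and 269.8) separate the strains on both diets. Parp3 is drawn from its brightest probe set, which its others did not match.

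Chromosome 9, which carries Ath29, held 12 of the higher genes and 21 of the lower ones among 647 measured. The share past 2-fold was 5.10%, beside 2.88% of all genes, and the highest of the 20 chromosomes measured. The next were chromosomes 8 and 15, at 3.74% each. Of 35 higher genes that read at least 100 on the brighter Western array, 9 lay on chromosome 9, or 25.7%, beside 5.52% of all genes measured. Of 158 lower genes that bright 12 lay there, or 7.59%, and of 118 outside the muscle, fat and oxidation lists 8, or 6.78%. On chow, with other arrays, 10 of the 12 higher and 16 of the 21 lower genes had the same sign, where 41.0% of all genes lay above and 59% below 0. Of these, 4 and 9 were past 2-fold there too, where 2.16% and 1.95% of all genes were. This differs from the lower genes outside the lists as a whole, where 134 of 195 had the opposite sign on chow.

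Among the lower genes of chromosome 9, Nnmt, the nicotinamide N-methyltransferase, read 1353, 1849, 240.1 and 269.8, a difference of -2.77. Parp3, an ADP-ribosyltransferase of DNA repair, differed by -2.34 in its brightest probe set, but by 0.21 and -0.18 in the others. Fez1, an adaptor of axonal transport, read 473, 368, 56.7 and 97.35 (-1.91). Clmp, a junction protein, read 310.2, 208, 111 and 66.1 (-1.64), and Tipin, of the replication fork, read 249, 242, 88.2 and 86.4 (-1.48). In the brightest probe set of each of these 5, both Ath29 arrays lay below both B6 arrays. A second Parp3 probe set read 763, 741, 679 and 854. Nxpe4, at 117, 124, 14.95 and 12.9, had Ath29 values below the filter. Siae, a sialic acid esterase, differed by -1.13 and Nicn1 by -1.34. Among the lower genes, Sln and Myl3 are heart genes, Acaa1b and Etfa oxidation genes and Zic1 (-1.003) a brown fat gene.

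Among the higher genes of the chromosome, Trappc4, a vesicle tethering subunit, read 58.9, 54.3, 153 and 159 (1.56, other probe set -0.34), and Plscr2, a phospholipid scramblase, read 49.55, 64.0, 181 and 163 (1.35). Calml4, a calmodulin-like gene, read 274, 190.45, 409 and 554 (1.55), and Tmem25 read 56.2, 50.5, 102 and 126 (1.32). Slco2a1, the prostaglandin transporter, read 346, 238, 469 and 591, with 1.32, 0.56 and 1.74 from its probe sets. Tmod3, a capper of actin filaments, gave 1.35 in its brightest probe set, with values between -0.81 and 0.71 in 4 others. Rcn2, a calcium-binding protein of the endoplasmic reticulum studied as an Ath29 candidate, read 1381, 1127, 652 and 844, a difference of -0.41 on Western diet and -1.13 on chow, with -0.97 on Western diet from a dimmer probe set.

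**Figure D4:**
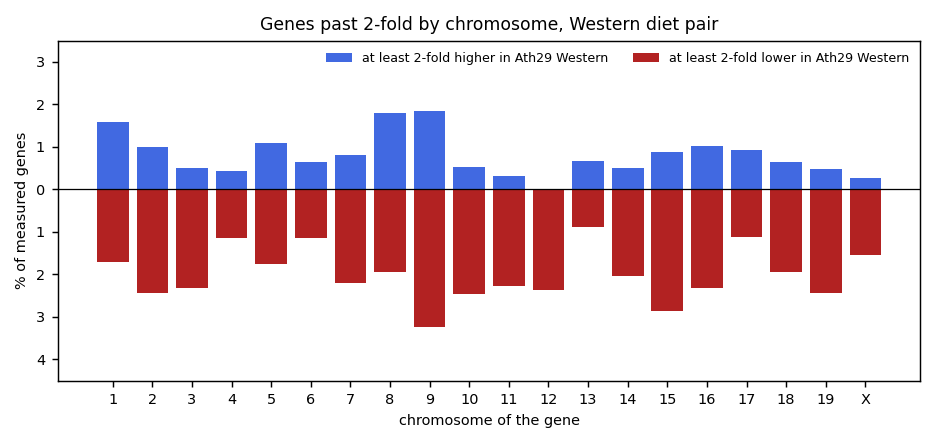
Percent of measured genes at least 2-fold higher (blue, upward) or lower (red, downward) in Ath29 Western than in B6 Western, by chromosome. Chromosome 9 has 1.85% higher and 3.25% lower, each the largest bar in its direction. Chromosome 8 is close to it at 1.79% higher, and chromosome 15 has 2.86% lower. Of the 21 lower genes of chromosome 9, 16 are outside the muscle, fat and oxidation lists.

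Genes of the vessel wall itself differed little. Contractile smooth muscle genes had a median of 0.07 over 25 measured members. Of these 1 was past 2-fold, beside 2.88% of all genes: Casq2 at -2.47, a calsequestrin that the heart list shares. Myh11, the smooth muscle myosin, read 2008, 1379.98, 841 and 1322, and Tagln, transgelin, read 5433, 4951, 3733 and 4747, with differences of -0.05 each. On chow 24 of the 25 lay below 0, beside 59% of all genes, with a median of -0.22. Endothelial genes had a median of 0.00, with Cdh5, VE-cadherin, at 0.06, and fibroblast genes a median of 0.02. In the endothelial list the VEGF receptors Kdr (37.9, 76.1, 52.3 and 35.15) and Flt1 (180.4, 364, 312 and 209.6) differed by -1.11 and -0.79, Flt1 with -0.41 and -0.26 from its other probe sets, while the third receptor, Flt4, differed by 0.32.

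Matrix genes leaned to higher values in Ath29 Western, all of them but Fmod under 1.5-fold. All 21 measured genes of collagens and their processing lay above 0, beside 50.6% of all genes, with a median of 0.26 and a range from 0.00 to 0.54. Col1a1, of the main fibrillar collagen, read 4402, 2324, 4060.1 and 3314 (0.52), and Col5a1 read 3716, 2380.4, 3404 and 3445 (0.54). In both genes the B6 Western array was the lowest and the 3 others lay closer together. On chow 19 of the 21 lay below 0, beside 59% of all genes. Elastic fibre genes had a median of 0.23, with elastin (Eln) at 0.08 and the latent TGF-beta binding protein Ltbp2 at 0.54.

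Fmod, fibromodulin, a small proteoglycan that binds collagen and TGF-beta, was the matrix gene furthest from equal. It read 1559, 1149.6, 1213 and 2455, and its 6 probe sets gave 1.10, 0.87, 0.96, 1.03, 1.24 and 0.82. The Ath29 Western array was the high one, above all 3 others. The other members of its list lay between -0.38 for Lum, lumican, and 0.47 for Prelp and Hapln1. Versican (Vcan), a proteoglycan that retains lipoproteins in the intima, differed by 0.36, and biglycan (Bgn) by 0.08. Metalloproteinases and their inhibitors had a median of 0.20 that turned to -0.03 when all probe sets of a gene were averaged. Of the 12 measured, 0 were past 1.5-fold, beside 5.61% of all genes higher and 7.89% lower.

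Receptors and signalling genes of the wall gave single genes rather than shifts of a list. Adra1b, an alpha-1 adrenergic receptor, read 48.4, 12.8, 61.4 and 45.4 (1.84), low on the B6 Western array alone and below the filter there. Avpr1a, the vasopressin receptor, read 183, 131, 198 and 212 (0.71), and Rgs2, which damps signals of vasoconstrictor receptors, read 1907, 3577, 3808 and 2132 (-0.74). Among ion channels, Cacna1c, the main L-type calcium channel of smooth muscle, read 177, 112, 126 and 189 (0.76), and Slc8a1, the sodium-calcium exchanger, read 296, 130.2, 223 and 229 (0.82). Smad7, the inhibitor of TGF-beta signalling, read 1780.3, 802, 1872 and 1343 (0.75, with 0.00 from another probe set), and Fst, follistatin, an activin antagonist, read 586.5, 1123, 628 and 597 (-0.90). Of 12 Notch genes, 7 lay above 0, beside 50.6% of all genes, and the median was 0.18.

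As a list, macrophage genes leaned to neither strain on Western diet. Their 21 measured members had a median of -0.04, with 10 above and 11 below 0, beside 49.4% of all genes below 0. Past 2-fold were 0, where 2.88% of all genes were. Ctss, cathepsin S, read 1254, 3482, 1404 and 3302, and Cd68, a lysosomal protein of macrophages, read 37.2, 70.0, 50.6 and 90.1. In both genes both Western arrays lay above both chow arrays. Gpnmb, a glycoprotein of lipid-laden macrophages, read 118, 285, 92.0 and 457, and was the member past 1.5-fold, at 0.69. Genes of MHC class II presentation had a median of -0.11 and complement genes one of 0.08. The defining T cell gene Cd3e read at most 1.89 and the B cell gene Cd79a at most 11.4 on any array.

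Cytokines gave some of the larger values among immune genes. Il6, the interleukin that drives the acute phase response, read 1.24, 31.1, 8.57 and 221 (2.83): the Ath29 Western array was far above the B6 Western array, and both chow arrays lay below the floor. Cxcl2, a chemokine for neutrophils, read 11.3, 67.5, 17.75 and 176 (1.39), and the related Cxcl1 read 232, 903, 269 and 1244 (0.47). Serpina3n, an acute phase protease inhibitor, read 16.3, 43.7, 27.3 and 84.9 (0.97). Ptx3, a pentraxin of inflamed tissue, lay on the other side at 33.2, 840.4, 69.8 and 279.7 (-1.58). Of 16 chemokine and cytokine genes 12 lay above 0, beside 50.6% of all genes, and the median was 0.21. At least 2-fold higher were 2, Il6 and Cxcl2, where 0.845% of all genes were. The downstream genes did not all follow Il6: Socs3, the feedback inhibitor of its receptor, differed by 0.37, Saa3, serum amyloid A3, by 0.45, and haptoglobin (Hp) by 0.04. Il6 and Cxcl2 each had 1 probe set past the filter. Both read below the filter on both chow arrays and passed it through their Western values, of which the Ath29 one was the higher. Their count as higher genes is therefore not independent of how they entered.

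Mast cell and platelet genes differed by strain in single members. Tpsab1, a mast cell tryptase, read 17.8, 19.9, 97.8 and 98.03 (2.31), with both B6 values below the filter, while Cpa3, a mast cell carboxypeptidase, read 54.1, 165, 98 and 72.2 (-1.18). The platelet chemokine gene Ppbp read 327, 169, 129 and 55.6 (-1.60) and the platelet tubulin Tubb1 read 346, 203, 133 and 85.65 (-1.24). Both platelet genes were lower in Ath29 on either diet, but Pf4, another platelet chemokine, differed by -0.23 and Itgb3, the platelet integrin, by 0.46.

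Genes of the interferon response, which cells switch on against viruses through STAT and IRF factors, leaned to lower values. Of 32 measured members 27 lay below 0, beside 49.4% of all genes, with a median of -0.27. Past 1.5-fold, 8 were lower, where 7.89% of all genes were, and 0 higher, and 1 was at least 2-fold lower. On chow the list had a median of 0.01, with 17 above and 15 below 0. Stat2, a subunit of the factor ISGF3, read 41.8, 52.9, 36.4 and 20.8 (-1.34), the last below the filter. Ifit1, an inhibitor of viral translation, read 82.4, 142, 94.7 and 73.1 (-0.95), Oas2, an oligoadenylate synthetase, read 55.3, 108, 92.0 and 63.5 (-0.76), and Irgm2, a GTPase of cell-autonomous defence, read 146, 226, 91.8 and 134 (-0.75). In these 4 genes the B6 Western array was the highest. Rsad2, viperin, at 825, 1582, 1483 and 969 (-0.70), and Ifi27 at 2148, 4319.96, 3081 and 2639 (-0.70) were brighter. Rsad2, Ifi27 and Oas2 show the order of the white fat list, lowest on the B6 chow and highest on the B6 Western array. Stat2, Ifit1 and Irgm2 were not lowest on B6 chow. The part of fat in these values was not tested. Ifit2 (0.30) and Oasl2 (0.31), also interferon-induced, lay on the other side.

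Promoters of 3 of these genes are shown because they carry the sequence that ISGF3 is known to bind. Sequences are RefSeq promoters of build GRCm38.p6, 250 bases before to 50 bases after the start, 5′ to 3′ on the gene's strand. Capitals mark GAAANNGAAA on either strand, which in reverse reads TTTCNNTTTC. Stat2 lies at chr10:128270248-128270547 (+), Ifit1 at chr19:34640639-34640938 (+) and Irgm2 at chr11:58214727-58215026 (+).
Stat2: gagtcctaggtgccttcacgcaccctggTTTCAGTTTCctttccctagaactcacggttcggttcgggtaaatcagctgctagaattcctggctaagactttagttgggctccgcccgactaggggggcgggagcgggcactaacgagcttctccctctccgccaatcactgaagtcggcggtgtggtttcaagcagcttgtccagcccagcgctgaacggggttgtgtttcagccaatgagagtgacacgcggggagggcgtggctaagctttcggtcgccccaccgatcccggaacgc
Ifit1: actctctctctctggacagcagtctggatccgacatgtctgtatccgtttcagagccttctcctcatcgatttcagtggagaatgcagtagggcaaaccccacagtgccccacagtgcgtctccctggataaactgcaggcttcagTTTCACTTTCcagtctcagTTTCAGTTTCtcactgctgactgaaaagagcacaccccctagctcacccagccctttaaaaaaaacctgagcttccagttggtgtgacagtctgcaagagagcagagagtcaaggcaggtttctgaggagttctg
Irgm2: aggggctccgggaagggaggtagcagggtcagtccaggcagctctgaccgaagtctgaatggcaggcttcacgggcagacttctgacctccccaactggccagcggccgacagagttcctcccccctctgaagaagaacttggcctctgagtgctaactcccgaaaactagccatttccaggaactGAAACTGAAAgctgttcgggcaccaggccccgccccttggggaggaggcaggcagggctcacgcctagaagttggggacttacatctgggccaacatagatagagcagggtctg
Ifit1 holds 2 matches and Stat2 and Irgm2 hold 1 each. Of the 32 measured interferon genes 24 had a promoter in the table, and 13 of those, 54.2%, held the motif, against 3.44% of all 32851 promoters and 3.99% of all genes with a promoter. The 13 had a median difference of -0.23, with 12 below 0, and the 11 without it one of -0.12, with 7 below 0. A match describes the letters of this window and is not evidence of a bound factor.

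Immediate-early genes, which respond within minutes to growth factors, flow or handling of the tissue, also leaned lower. Of 26 measured members 19 lay below 0, beside 49.4% of all genes, and the median was -0.15. At least 2-fold, 3 were lower, where 2.03% of all genes were, and 0 were higher. All 3 of the lower genes are inducible transcription factors. Nr4a1, an orphan nuclear receptor, read 420.1, 1074, 423 and 421 (-1.34): the B6 Western array stood alone above 3 nearly equal values. Egr2 read 112, 219.9, 104 and 87.6 (-1.32, other probe set -0.70), and Nr4a3 read 129, 238, 148 and 112 (-1.08, other probe set -0.22). The stress factor Atf3 read 579, 1015, 429 and 601 (-0.75). The most general members differed little, with Fos at -0.19, Jun at -0.22 and Dusp1, a MAP kinase phosphatase, at -0.05. Klf2, a flow-induced factor of endothelium, lay at 0.38. On chow 23 of the 26 lay below 0, beside 59% of all genes, and the median of -0.37 was further from 0 than on Western diet.

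Promoters of Nr4a1 and Nr4a3 are shown because of repeated copies of the cAMP response core. The third gene of the family, Nr4a2, also holds the core but read 300, 335, 391 and 319, a difference of -0.06. Capitals mark TGACG on either strand, which in reverse reads CGTCA, in RefSeq promoters of the same build and window. Nr4a1 lies at chr15:101266596-101266895 (+) and Nr4a3 at chr4:48045055-48045354 (+).
Nr4a1: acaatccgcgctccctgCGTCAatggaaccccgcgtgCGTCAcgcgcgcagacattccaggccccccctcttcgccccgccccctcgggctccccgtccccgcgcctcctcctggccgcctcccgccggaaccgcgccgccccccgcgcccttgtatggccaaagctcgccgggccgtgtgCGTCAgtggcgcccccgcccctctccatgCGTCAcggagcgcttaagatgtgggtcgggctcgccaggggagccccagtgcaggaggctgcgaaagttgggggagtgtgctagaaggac
Nr4a3: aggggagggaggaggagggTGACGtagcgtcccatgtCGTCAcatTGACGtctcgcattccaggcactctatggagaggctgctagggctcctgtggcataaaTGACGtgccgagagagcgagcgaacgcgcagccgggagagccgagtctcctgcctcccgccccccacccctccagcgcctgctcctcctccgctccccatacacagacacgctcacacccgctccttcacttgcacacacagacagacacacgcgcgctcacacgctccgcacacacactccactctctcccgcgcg
Each holds 4 matches. Of 21 immediate-early genes with a promoter in the table, 13, or 61.9%, held the core at least once, against 20.8% of all promoters and 23% of all genes with a promoter. The 13 had a median difference of -0.44, with 11 below 0, and the 8 without it one of -0.02, with 4 below 0. These too are matches of letters only.

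Lipid genes outside the oxidation list leaned lower too. Of 20 genes of fatty acid and triglyceride synthesis 17 lay below 0, beside 49.4% of all genes. At least 2-fold lower were 3, where 2.03% of all genes were. The median was -0.50, while on chow it was 0.46. Thrsp, a regulator of lipogenesis, read 1664, 4367, 3534 and 2630.5 (-0.72), and Dgat2, which makes triglyceride, read 2096, 4259, 3657 and 2689 (-0.66). Thrsp shows the order of the white fat list, lowest on the B6 chow and highest on the B6 Western array. Dgat2 has that order too but is itself a member of the white fat list. Dgat1 differed by -1.23 and, with a probe set that binds 1 transcript, by 0.28. The desaturases Fads2 (0.87) and Fads1 (0.43) lay on the other side.

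Cholesterol genes showed smaller differences. Of 15 genes of cholesterol efflux and LXR control, 13 lay below 0, beside 49.4% of all genes, and the median was -0.34. The 13 include Cd36, which is also on the fatty acid oxidation list. Cd36, a scavenger receptor for oxidised lipoprotein that adipocytes also express, read 911, 2764, 2004 and 1390.0, with differences of -0.98, -1.38 and -1.14 over its probe sets. Scarb1, the HDL receptor, read 588, 1381, 988 and 763 (-0.85). The efflux pumps Abca1 (1269, 2423, 1389 and 1949) and Abcg1 (93.0, 405, 176 and 362) differed by -0.31 and -0.15, and both read higher on both Western arrays than on both chow arrays. Cholesterol synthesis genes had a median of -0.22, with 12 of 17 below 0. Sc5d, a late sterol desaturase on chromosome 9, differed by -1.01, with -0.21 from another probe set. Hmgcs1, at the start of the pathway, differed by -0.22 and Sqle, squalene epoxidase, by 0.33.

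Genes that mark position and development pointed to single members. Hoxc8, a patterning gene of the lower trunk, read 397, 712, 189 and 255 (-1.47), lower in Ath29 on both diets, and its neighbours Hoxc5 and Hoxc4 lay at -0.63 and -0.32. The genes Hoxb3 to Hoxb6 on the list lay at 0.36 to 0.56. The whole Hox list had a median of 0.21 that turned to -0.21 without the filter and to -0.04 with probe sets averaged. Of the heart and outflow transcription factors, Nkx2-5, of heart muscle cells, read 32.1, 43.7, 33.8 and 23.7 (-0.88), and Tbx5 read 62.0, 126, 82.8 and 85.4 (-0.55). Hand2, of heart and sympathetic lineages, read 33.2, 48.5, 165 and 17.6 (-1.45), where the Ath29 chow array was the high one.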

How the data were processed

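Total RNA labelled as aorta was hybridised to 4 Affymetrix mouse arrays, 1 per group, from 8 ug of RNA per the labels' protocols. The authors deposited linear intensities, a scale read from the values, in 1 table for the series. Summarising software, normalization and genome build: not given in the sources used here. Of the non-control probe sets, 34945 carry 1 symbol in the platform annotation, 932 several and 9160 none. Symbols were updated through RefSeq (GRCm38.p6), where 34741 matched.

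The deposited intensities were taken to log2 and shifted to a common median (factors 0.990 to 1.02). A floor was set at 9.59 units, the 25th percentile over the arrays, and lower values were set to it. Probe sets with a mean log2 value over the 4 arrays above 4.78, the median of all probe sets (27.4 units), were kept, 22518 in all. Each gene was read from its brightest probe set. The number of arrays limits the precision, and medians and counts past 2-fold are descriptions. The steps were tested on simulated data.

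Named genes are the 15 highest and 15 lowest outside the 7 muscle, fat and oxidation lists with a brighter Western array of at least 100, the 6 largest differences of each of those 7 lists, and up to 4 past 1.5-fold of each of the 42 other lists. They also include genes whose probe sets all passed 2-fold, and Apoe, Rcn2, Alb, Sln and Pln. Other members and chromosome 9 genes were named to show the lists' range, after their values were seen. The comparison, lists and rules were chosen with earlier results of these data known. Alternatives covered scaling, filter, floor, choice of probe set and threshold. Python 3.11.15, pandas 2.3.3, numpy 2.4.6 and matplotlib 3.10.9 were used.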

Additional observations from a re-analysis of the deposited data

Results flagged for a closer look

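The results here have 1 sign between the strains on Western diet and the opposite sign on chow, on arrays they do not share. The difference between the diets was not tested, since each group has 1 array.

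The median of the brown fat list was -0.76 on Western diet and 0.59 on chow, that of the white fat list -0.65 and 0.72, and that of the fatty acid oxidation list -0.66 and 0.65. The list of fatty acid and triglyceride synthesis gave -0.50 and 0.46. In all 4 lists the Ath29 array was above the B6 array on chow and below it on Western diet.

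Some single genes did the same. Tmem182 differed by -2.998 on Western diet and 1.21 on chow, Actn2 by -2.42 and 1.66, and Rasl2-9, a Ras-like GTPase gene, by -2.25 and 1.26. Genes supported by every probe set were Car4 (-1.51 and 1.53), Cyp2b10 (-1.55 and 1.33), Elovl6 (-1.18 and 1.05), Crls1 (-1.05 and 1.02), Prkar2b (-1.04 and 1.08) and Cd1d1 (-1.01 and 1.11). The reverse order, higher in Ath29 on Western diet and lower on chow, was seen in Camk4 (1.77 and -1.77) and Ocln (1.54 and -1.30).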

How the results depend on the processing

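With 1 array per group no array could be left out. No paired analysis was possible because each group has 1 array. The number of genes at least 2-fold higher and lower, 99 and 238, became 347 and 479 without the filter, 18 and 108 with a filter at the 75th percentile, 657 and 924 at 1.5-fold and 14 and 53 at 3-fold. Genes with more than 1 probe set, all past 2-fold, numbered 1 and 14. The higher genes were 29.4% of those past 2-fold as reported, 27.6% to 32.9% under the other scalings, floors, probe set rules and the filter on the Western arrays, but 42% without the filter and 14.3% with the stricter one. Of 49 list medians, 41 moved by less than 1.5-fold under each alternative run, with no change of sign among those of at least 0.1 in size on the log2 scale. The atrial heart median of -4.98 became -3.84 without the filter and with a floor at the 40th percentile, -4.15 with the filter on the Western arrays alone, and -1.76 with the stricter filter. The ventricular and shared heart median became -0.88 with the stricter filter and -1.30 without probe sets that bind several transcripts. The stricter filter also gave -1.01 for thymus, 0.046 for platelets and 0.026 for heart transcription factors, the last 2 with turned sign, and left no mast cell gene. The Hox median turned to -0.21 without the filter and to -0.044 with probe sets averaged, the metalloproteinase median to -0.025 with probe sets averaged, and that of red cells to -0.29 without probe sets that bind several transcripts. For the 154 named genes, a change of sign was counted only where the reported difference was at least 2-fold. By that rule 2 changed sign. Plekha7 went to -0.45 with a floor at 1, where another probe set was the brightest. Dgat1 went to 0.28 without probe sets that bind several transcripts. Apart from the genes that a filter adds or removes, why these values moved was not tested.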

Other observations

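Genes of general cell maintenance had list medians near 0 between the strains on Western diet. Ribosomal protein genes had a median of -0.07 over 26 genes and clock genes one of -0.07 over 17. Antioxidant genes had one of -0.01 over 21 and genes of the unfolded protein response one of -0.13 over 22. Past 2-fold were 0 genes of these 4 lists, where 2.88% of all genes were. Past 1.5-fold lower were 2 antioxidant genes, Gsta3 (-0.97) and Txnrd1 (-0.61), and 1 clock gene, Ciart (-0.67), where 7.89% of all genes were. Heat shock genes had a median of -0.12 over 17, with Hspe1, a mitochondrial chaperonin, at -0.72. Cell cycle genes had a median of 0.17 over 21, with 3 past 1.5-fold higher and 2 lower, beside 5.61% and 7.89% of all genes. Pbk, a mitotic kinase, read 29.1 in B6 and 58.6 in Ath29 aorta on chow, and 35.1 and 67.6 on Western diet (0.95), while Cenpa, the centromere histone, differed by -0.67.

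Nerve genes were lower in part. Mbp, myelin basic protein, gave -0.93 in its brightest probe set and values between -0.47 and 0.34 in 4 others, Cdh19, a cadherin of Schwann cell precursors, -0.81, and Sox10, the Schwann cell factor, 0.18. Among sympathetic genes, Gata3 read 35.9 in B6 and 37.9 in Ath29 aorta on chow, and 20.6 and 43.5 on Western diet (1.09), low on the B6 Western array, where it lay below the filter, while Dbh, which makes noradrenaline, differed by 0.16. Of red cell genes, the globin Hba-a2 differed by -0.49 and Alas2, of haem synthesis, by 0.24.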
